A study of Rattus norvegicus with 30 samples.

Results

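The lungs of 5 rats that had inhaled copper oxide (CuO) nanoparticles at 3.3 mg/m3, the lower of the 2 concentrations used, were compared with the lungs of 5 rats that had breathed air, all on day 6. The 10 arrays were chosen by their titles, which give the time point and the dose, out of 30 arrays in all. All rats were outbred males of the Wistar Unilever strain HsdCpb:WU, bought as adults 8 weeks old and kept for 2 weeks before use. They were held in nose-only inhalation tubes on 5 days in a row, at concentrations expressed as the equivalent of 6 hours a day, and day 6 is 1 day after the last exposure. The other arrays came from 5 rats given 13.2 mg/m3 and killed on day 6, and from low-dose, high-dose and air rats killed on day 28, which the protocol in the labels places at day 22 after the last exposure. The treatment label names the nanoparticles for every sample, the air rats included, so the dose label was used to tell them apart. No rat carried a transgene or deletion, and each array held the RNA of 1 rat.

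RNA from whole lung was labelled with Cy5 and set on each array against a common Cy3-labelled reference. A value below is the log2 ratio of lung over reference for 1 probe per gene, so that an increase of 1 is a doubling, and ratios of different genes are not comparable with each other. The labels describe the reference as RNA of 14 rat cell lines in one place and as a mouse reference in another. The tissue was lung by its defining markers: Sftpc, the surfactant protein of alveolar type II cells, Scgb1a1, the secretoglobin of club cells, and Ager, of alveolar type I cells, were well above background on all 10 arrays. Sftpc averaged 9.95 ± 0.42 in low-dose rats and 9.92 ± 0.36 in air rats, and Ager 4.01 ± 0.21 in low-dose rats and 4.07 ± 0.08 in air rats (SD, n = 5 each). Neither differed past the threshold, with adjusted p of 0.966 for Sftpc and 0.811 for Ager. In whole lung, fewer cells of a type and less RNA per cell cannot be told apart.

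One array stood apart before any comparison. The array of air rat 4 correlated with every other array at 0.946 or less, whereas each of the other 29 arrays had at least 1 partner at 0.966 or more. Its 18 heart muscle genes averaged 3.7, against -1.26 to -0.45 in the other 4 air rats, and its club and ciliated cell markers were also the highest among air rats. For the genes and lists described below, results are given with and without this array where leaving it out ended a call or moved the count of a list by over 1.5 times. Lists not described below moved as well. Chemokine receptors went from 2 higher and 2 lower to 4 and 0. Endothelial markers went from 1 to 3 lower, and glycolysis genes from 3 to 5 higher. The calls on Ackr3 and Herpud1, also not described below, were lost without this array. Medians and other values without it are given in part only.

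Inhaled particles that settle in the alveoli are engulfed mainly by alveolar macrophages, and the macrophages and epithelium they injure release chemokines that draw neutrophils and monocytes out of the blood. The injured epithelium also secretes proteins that starve, bind or kill microbes, many of them shared with the acute phase response of the liver. Copper oxide dissolves in acid compartments and releases copper ions, which metallothioneins bind and which can oxidise lipids and thiols.

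Of 18420 genes tested, 1238 differed between low-dose and air rats (limma, Benjamini-Hochberg adjusted p under 0.05), which is 6.72% of all genes. Of these, 916 were higher and 322 lower in low-dose rats, so 74% of the calls were increases. That share was 63.2% when the Cy5 channel was used alone. Among genes that changed at least 2-fold, 176 were higher and 16 lower. Each of the 4 array slides held low-dose and air rats, and within them between 97.6% and 100% of the called genes kept their direction. The same arrays made these calls, with 1 or 2 arrays per group on a slide, so the shares are a description. Whether called or not, 5.37% of all genes had every low-dose value above every air value, and 7.57% had groups that did not overlap in either direction. Without air rat 4 the count was 1316, of which 987 were higher.

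**Figure D1:**
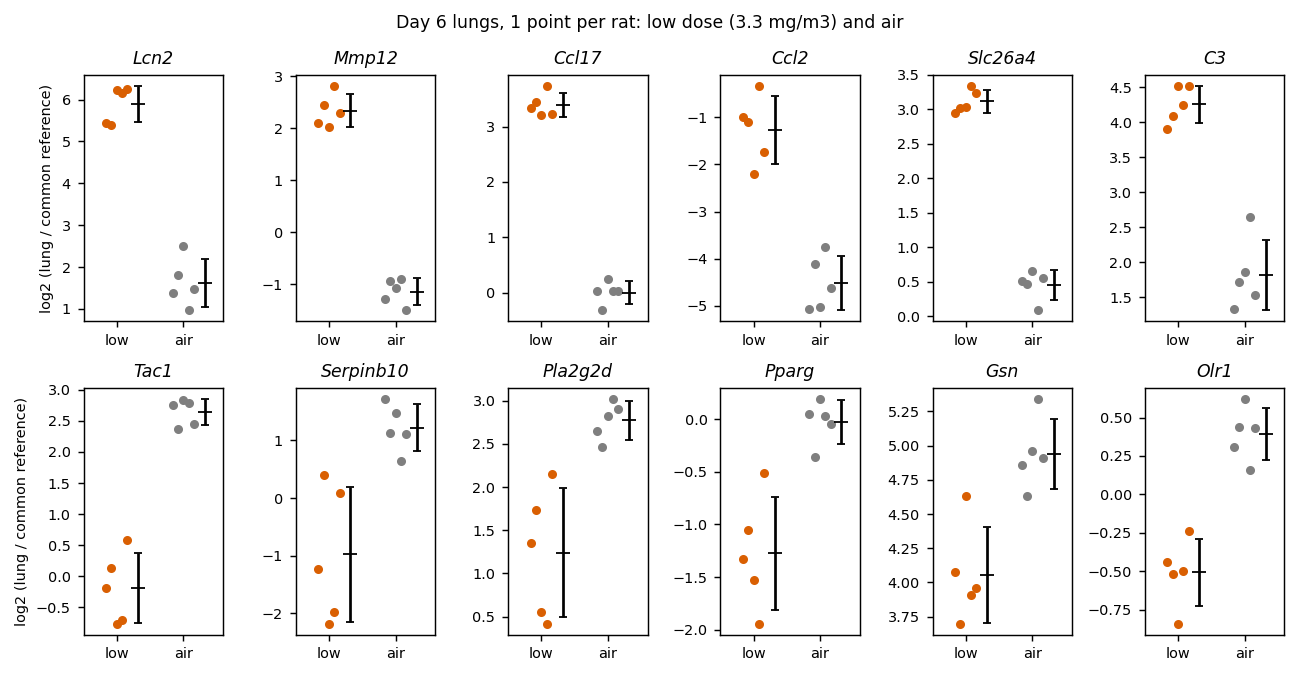
Log2 ratio of lung over common reference (y axis, a separate scale per gene) in low-dose (left) and air rats (right) on day 6, 1 point per rat with the group mean and SD beside it. In all 12 panels the low-dose rats lie wholly above or wholly below the air rats. The genes were picked among those without overlap, so this separation was set by the choice. Lcn2, for example, lies between 5.39 and 6.25, against 0.97 to 2.5 in air.

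Among the named genes the largest increase was in Lcn2, a secreted defence gene, followed by Defb5, Mmp12 and Ccl17. Defence, macrophage and chemokine genes thus shared the top of the ranking, and defence genes are described first. Lcn2 encodes lipocalin 2, which binds bacterial siderophores and so withholds iron. Its log2 ratio was 5.44, 5.39, 6.23, 6.15 and 6.25 in low-dose rats 47 to 51, against 1.37, 1.81, 2.5, 0.97 and 1.48 in air rats 1 to 5. All 5 low-dose rats lay far above all 5 air rats. The difference was 4.27 ± 0.33 (SE, n = 5 per group), or 19.2-fold, with an adjusted p of 8.37e-10, and it was between 3.64 and 5.27 within each slide. Of 27 measured acute phase and secreted defence genes, 14 were higher and 0 lower in low-dose rats, 51.9% against the 6.72% of all genes, and their median difference was 0.69 against 0.00 for all genes. Without air rat 4, 13 were higher. This list and the others were drawn up with earlier results of these data known, so their counts are descriptions.

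S100a9 and S100a8 encode the subunits of calprotectin, a metal-binding protein abundant in neutrophils. S100a9 was 5.9, 5.69, 6.45, 6.55 and 6.75 in low-dose rats, against 3.25, 2.96, 3.37, 2.56 and 2.66 in air rats. S100a8 was 2.81, 1.98, 2.59, 2.76 and 2.73 in low-dose rats, against 0.76, 1.05, 0.45, 0.08 and 0.18 in air rats. For both genes the groups were apart, and rat 48 was the lowest of the low-dose rats. S100a9 rose by 3.31 ± 0.36 (adjusted p = 2.78e-07) and S100a8 by 2.07 ± 0.29 (adjusted p = 1.42e-05).

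The beta-defensin Defb5, an antimicrobial peptide gene, was 4.99, 1.52, 5.53, 5.09 and 5.75 in low-dose rats, against 0.84, 0.72, 1.24, 0.61 and 0.76 in air rats. In 4 low-dose rats it was near 5 or above, and in rat 48 it was barely above the air rats. The difference was 3.74 ± 0.44 (adjusted p = 9.78e-07), and 2.39 with the processed signals. Orm1 encodes alpha-1-acid glycoprotein, a plasma carrier protein of the acute phase. It was well above background in all 5 low-dose rats and in none of the air rats. Its log2 Cy5 level was 9.18 in low-dose rats and a measured 6.32 in air rats, where it is only a limit. The log2 ratio differed by 2.55 ± 0.20 (adjusted p = 1.36e-09), less than Cy5 alone, and by 4.7 with the processed signals, so no fold is given. Haptoglobin (Hp), which binds free haemoglobin, rose by 1.73 ± 0.18 (adjusted p = 2.01e-07), and ceruloplasmin (Cp), the copper-carrying ferroxidase of plasma, by 0.93 ± 0.13 (adjusted p = 1.06e-05). Chi3l1, which encodes a chitinase-like protein of macrophages and epithelium, rose by 2.37 ± 0.30 (adjusted p = 2.37e-06), but by 0.8 with the processed signals (adjusted p = 0.0399).

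Bpifb1 encodes a secreted protein of airway goblet cells. It was 3.81, 3.56, 4.29, 4.56 and 4.14 in low-dose rats, against 0.72, 1.06, 1.13, 4.52 and 0.56 in air rats. Air rat 4 lay among the low-dose rats, and the other 4 air rats lay well below them. The difference of 2.47 ± 0.52 (adjusted p = 0.00252) became 3.2 without air rat 4 and 1.31 with the processed signals, which lost the call (adjusted p = 0.0966), and the difference within the slide that holds that rat was -0.3.

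Promoter sequence is shown for Lcn2 and Orm1 because 10 of the 20 defence genes with a promoter in the RefSeq table (build GRCr8) carry the letters TTNNGCAA, a short form of the site bound by C/EBP factors, on either strand in the 250 bases before the start. The table holds 33469 promoters, of which 9.22% carry it. The motif was picked with the expression results in view, and a match is a description of the letters only. Capitals mark the match, which starts at base -191 in Lcn2 (chr3:36081921-36082000, minus strand) and at base -123 in Orm1 (chr5:81788359-81788438, plus strand).
Lcn2: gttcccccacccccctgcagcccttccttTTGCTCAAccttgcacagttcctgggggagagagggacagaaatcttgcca
Orm1: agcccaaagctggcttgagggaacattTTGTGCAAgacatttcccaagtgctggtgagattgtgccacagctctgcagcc

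Of 22 measured complement components and regulators, 7 were higher and 0 lower in low-dose rats, 31.8% against 6.72% of all genes, with a median of 0.28. C3, the central component that the pathways converge on, was 3.9, 4.09, 4.51, 4.25 and 4.51 in low-dose rats, against 1.34, 1.72, 1.86, 2.65 and 1.53 in air rats. The groups were apart, and air rat 4 was the highest of the air rats. C3 rose by 2.43 ± 0.20 (adjusted p = 1.44e-09). Cfi, the protease that inactivates C3b, rose by 1.87 ± 0.25 (adjusted p = 6.56e-06). C4bpa, which is no member of the list as drawn up and encodes the C4b-binding protein, a cofactor of Cfi, rose by 2.18 ± 0.26 (adjusted p = 1.44e-06).

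Among the signalling proteins, chemokines led. Of 31 measured chemokine genes, 11 were higher and 1 lower in low-dose rats, 38.7% against 6.72% of all genes. Ccl17 and Ccl22 encode the ligands of Ccr4, which is carried by type 2 helper and regulatory T cells. Ccl17 was 3.33, 3.45, 3.22, 3.74 and 3.23 in low-dose rats, against 0.02, -0.32, 0.25, 0.03 and 0.02 in air rats. Ccl22 was 3.32, 3.3, 3.72, 3.85 and 3.45 in low-dose rats, against 0.12, 0.13, 0.57, 0.25 and 0.47 in air rats. Both sets of values were tight and far apart, with differences of 3.39 ± 0.15 for Ccl17 and 3.22 ± 0.15 for Ccl22 (adjusted p = 5.11e-15 for each). Of 23 measured T cell markers 1 was higher and 0 lower (4.35%, against 6.72% of all genes). Most shifts were small but upward, with 22 of the 23 differences positive and a median of 0.18. The called marker was Icos, a costimulatory receptor of activated T cells, at 0.89 ± 0.16 (adjusted p = 0.00045). Without air rat 4 the count of called markers was 2.

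Ccl2, Ccl7 and Ccl12 encode ligands of Ccr2 that bring monocytes out of the blood. Ccl2 was -0.99, -1.09, -2.2, -0.33 and -1.74 in low-dose rats, against -5.07, -4.11, -5.03, -3.75 and -4.63 in air rats. The groups were apart, with rat 50 the highest and rat 49 the lowest of the low-dose rats. Ccl2 rose by 3.25 ± 0.42 (adjusted p = 3.97e-06), Ccl7 by 3.03 ± 0.31 (adjusted p = 1.1e-07) and Ccl12 by 2.99 ± 0.34 (adjusted p = 5.32e-07). Ccl12 was 5.22 in rat 50 and between 2.93 and 3.52 in the other 4 low-dose rats, and without rat 50 it rose by 2.57.

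Cxcl1 and Cxcl2 encode ligands of Cxcr2 that attract neutrophils. Cxcl1 was -2.24, -2.51, -2.1, -1.35 and -2.17 in low-dose rats, against -4.03, -3.67, -2.98, -3.32 and -3.52 in air rats. Cxcl2 was 1.14, 1.83, 0.65, 1.94 and 0.12 in low-dose rats, against -0.9, -0.87, -0.33, -0.27 and -0.01 in air rats. The groups did not overlap for either gene, although for Cxcl2 low-dose rat 51 came close to air rat 5. Cxcl1 rose by 1.43 ± 0.22 (adjusted p = 4.97e-05) and Cxcl2 by 1.61 ± 0.28 (adjusted p = 0.000319). Both promoters hold a form of the NF-kB site, searched as GGG, any 2 bases and TTTCC on either strand, which 5 of 25 chemokine promoters and 1.3% of all promoters carry in the 250 bases before the start. They are shown for that reason, with the matches in capitals, from chr14:17479362-17479441 for Cxcl1 and chr14:17467296-17467375 for Cxcl2, both on the minus strand. The matches start at bases -102 and -84 in Cxcl1 and at bases -74 and -54 in Cxcl2.
Cxcl1: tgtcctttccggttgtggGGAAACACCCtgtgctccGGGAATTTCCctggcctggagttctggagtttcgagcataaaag
Cxcl2: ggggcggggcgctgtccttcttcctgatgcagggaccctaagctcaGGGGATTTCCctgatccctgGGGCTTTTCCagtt

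Cytokines and pattern receptors changed in smaller numbers. Of 26 measured cytokine and receptor genes, 6 were higher and 0 lower (23.1%). Of 22 Toll-like receptor, inflammasome and NF-kB genes, 6 were higher and 0 lower (27.3%), against 6.72% of all genes. Il1b, interleukin 1 beta, was 3.42, 3.12, 2.68, 3.41 and 3.07 in low-dose rats, against 1.48, 1.78, 1.62, 1.65 and 1.37 in air rats. The decoy receptor Il1r2, which binds interleukin 1 without signalling, was 0.81, 0.67, 0.32, 0.82 and 1.42 in low-dose rats, against -1.51, -1.42, -1.51, -1.59 and -1.46 in air rats. The agonist and its decoy thus both lay wholly above the air values. Il1b rose by 1.56 ± 0.26 (adjusted p = 0.000182) and Il1r2 by 2.31 ± 0.15 (adjusted p = 2.78e-11). Tlr2, a receptor of bacterial lipoproteins, rose by 0.97 ± 0.12 (adjusted p = 1.77e-06), and Bcl3, a nuclear partner of NF-kB, by 0.61 ± 0.13 (adjusted p = 0.00251).

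Of 16 measured neutrophil markers, 8 were higher and 1 lower in low-dose rats, 56.2% against 6.72% of all genes, and the mean of the list lay between 1.52 and 2.04 in low-dose rats and between 0.63 and 0.92 in air rats. Besides Lcn2, S100a8, S100a9 and Il1r2, the increases included Csf3r, the receptor of granulocyte colony-stimulating factor, at 0.79 ± 0.19 (adjusted p = 0.00687) and Cxcr2 at 0.64 ± 0.12 (adjusted p = 0.000555). Cxcr1, another receptor on the list, differed by -0.998 ± 0.31 (adjusted p = 0.0448) and lost that call without air rat 4, when 8 markers were higher and 0 lower. The part of neutrophil number in the defence and chemokine results was not tested.

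Of 32 measured macrophage and monocyte markers, 10 were higher and 2 lower (37.5%, against 6.72% of all genes). The list mean lay between -0.01 and 0.71 in low-dose rats and between -0.21 and -0.08 in air rats. Mmp12, the macrophage elastase, was 2.1, 2.45, 2.02, 2.82 and 2.3 in low-dose rats, against -1.29, -0.94, -1.08, -0.89 and -1.5 in air rats. Spp1, which encodes osteopontin, was -3.14, -3.02, -3.33, -2.87 and -3.6 in low-dose rats, against -4.85, -4.54, -5.14, -5.02 and -4.78 in air rats. Neither gene had overlapping groups. Mmp12 rose by 3.48 ± 0.17 (adjusted p = 9.5e-15) and Spp1 by 1.68 ± 0.24 (adjusted p = 1.48e-05). The lipid chaperone Fabp5 rose by 2.18 ± 0.25 (adjusted p = 7.31e-07), the lipid-sensing receptor Trem2 by 1.75 ± 0.24 (adjusted p = 1.1e-05), and the integrin Itgam, carried by monocytes and neutrophils, by 1.27 ± 0.19 (adjusted p = 2.61e-05).

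The 2 macrophage markers that fell were Pparg and Clec7a. Pparg encodes the lipid-activated receptor that alveolar macrophages need to mature. It was -1.33, -1.05, -1.53, -1.94 and -0.51 in low-dose rats, against 0.05, -0.36, 0.19, 0.03 and -0.05 in air rats. The groups came closest between low-dose rat 51 and air rat 2. Pparg fell by 1.24 on the log2 scale (SE 0.21, adjusted p = 0.00014), and Clec7a, the beta-glucan receptor dectin 1, fell by 1.12 (SE 0.31, adjusted p = 0.0222). The call on Clec7a was lost when any of 5 rats was left out. Abcg1, a cholesterol exporter of alveolar macrophages, was chosen after its values were seen. It was 0.54, 0.56, -0.58, -0.64 and 1.34 in low-dose rats, against 1.77, 1, 1.76, 1.71 and 1.97 in air rats. Low-dose rats 49 and 50 were the lowest, and low-dose rat 51 lay above air rat 2. Abcg1 fell by 1.40 (SE 0.28, adjusted p = 0.00169).

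Lymphoid and granulocyte markers other than those of neutrophils showed few calls. None of 13 NK and cytotoxic markers and none of 15 B and plasma cell markers passed the threshold, with medians of 0.12 and 0.07, and 1 B cell marker passed without air rat 4. Of 16 mast cell, basophil and eosinophil markers 1 was higher and 1 lower (12.5%, against 6.72% of all genes). Of 23 antigen presentation and dendritic cell markers 5 were higher and 0 lower (21.7%). They were led by Clec9a, a receptor of cross-presenting dendritic cells, at 1.19 ± 0.14 (adjusted p = 8.75e-07), and RT1-DMa, a class II peptide-loading subunit, at 0.82 ± 0.13 (adjusted p = 4.94e-05). Of 14 measured type 2 and alternative activation genes, 5 were higher and 1 lower (42.9%), the first of them Ccl17 and Ccl22.

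**Figure D2:**
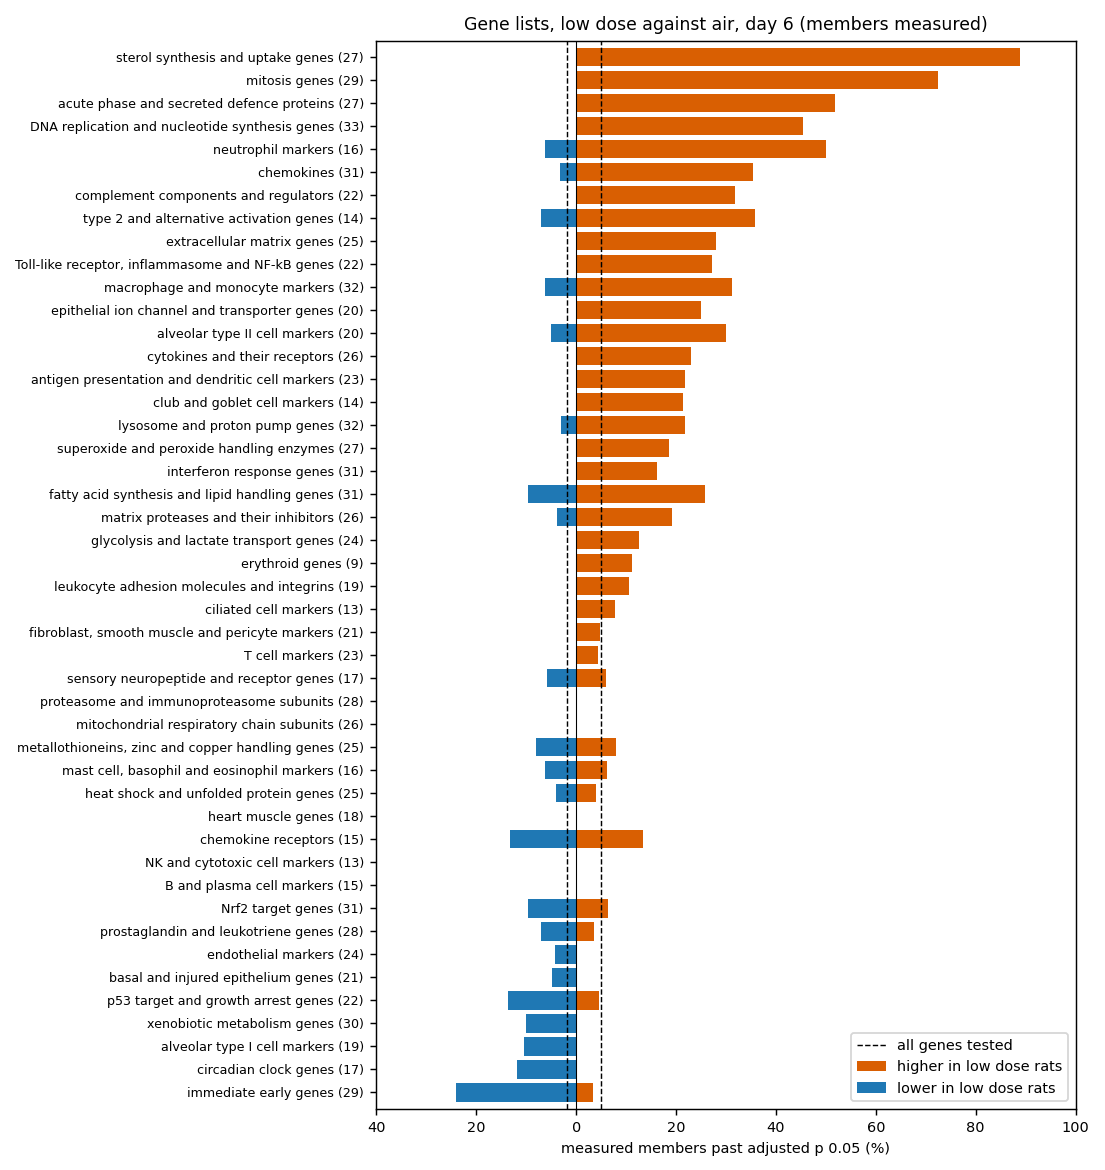
Share of measured members of each gene list past the threshold (x axis, percent), higher in low-dose rats to the right and lower to the left, with the number measured in brackets. Dashed lines mark the shares over all genes tested, 4.97% higher and 1.75% lower, and the sterol list is the longest bar.

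Sterol synthesis stood out among the lists by count. Cells make cholesterol from acetyl-CoA through mevalonate and squalene, and the factor encoded by Srebf2 is known to switch on these enzymes when membranes lack sterol. Of 27 measured sterol synthesis and uptake genes, 24 were higher and 0 lower in low-dose rats, 88.9% against 6.72% of all genes. Their median difference was 0.94, and the mean of the list lay between -0.71 and -0.41 in low-dose rats and between -1.52 and -1.38 in air rats. Within the 4 slides the list shifted by 0.83 to 0.99, and the count without air rat 4 was also 24.

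The increases covered the pathway from its first steps to its last. Hmgcs1, which makes HMG-CoA, was -0.14, -0.94, -0.28, -0.66 and -1.04 in low-dose rats, against -2.06, -1.96, -2.09, -1.89 and -2.2 in air rats. Idi1, which isomerises isopentenyl diphosphate, was -0.04, 0.1, -0.12, -0.04 and -0.28 in low-dose rats, against -2.05, -1.74, -1.9, -1.5 and -1.89 in air rats. Tm7sf2, a sterol reductase late in the pathway, was -0.56, -0.02, -0.45, -0.1 and -0.13 in low-dose rats, against -2.64, -1.92, -2.13, -2.19 and -2.2 in air rats. In all 3 genes every low-dose rat lay above every air rat. Tm7sf2 rose by 1.96 ± 0.16 (adjusted p = 1.42e-09), Idi1 by 1.74 ± 0.13 (adjusted p = 2.5e-10) and Hmgcs1 by 1.43 ± 0.18 (adjusted p = 2.67e-06).

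Fdps, which makes farnesyl diphosphate, rose by 1.77 ± 0.17 (adjusted p = 4.87e-08), and Sqle, which epoxidises squalene, by 1.75 ± 0.16 (adjusted p = 1.95e-08). Srebf2 itself rose by 0.38 ± 0.10 (adjusted p = 0.0182), a call that 5 of the alternatives lost, among them leaving out rat 49. Among the members that did not pass were Insig2 at 0.12 ± 0.08 and Scap at 0.02 ± 0.08, which retain or escort the Srebf2 protein.

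The CCAAT box is bound by the factor NF-Y, which is known to act beside the Srebf2 protein at sterol promoters, and 15 of the 19 sterol genes in the promoter table hold CCAAT on either strand in the 250 bases before the start. Of all promoters 34% do, and of the promoters of genes tested 35.8%. The mitosis genes described next held it in 17 of 23. The sterol element searched as TCACNCCAC was in 0 of the 19 and in 0.974% of all promoters, which says only that these letters are not in the windows. The stretches of 3 leading genes are shown with their CCAAT letters in capitals. They are from chr2:176804867-176804966 on the minus strand for Fdps, chr2:53382104-53382203 on the plus strand for Hmgcs1 and chr17:66547525-66547624 on the minus strand for Idi1, and each holds 2 matches.
Fdps: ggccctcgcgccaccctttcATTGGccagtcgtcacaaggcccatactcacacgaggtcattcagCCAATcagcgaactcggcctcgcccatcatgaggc
Hmgcs1: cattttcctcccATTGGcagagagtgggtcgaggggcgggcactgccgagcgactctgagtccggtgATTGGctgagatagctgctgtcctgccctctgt
Idi1: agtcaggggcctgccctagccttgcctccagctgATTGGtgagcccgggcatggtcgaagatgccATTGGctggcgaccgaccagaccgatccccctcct

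**Figure D3:**
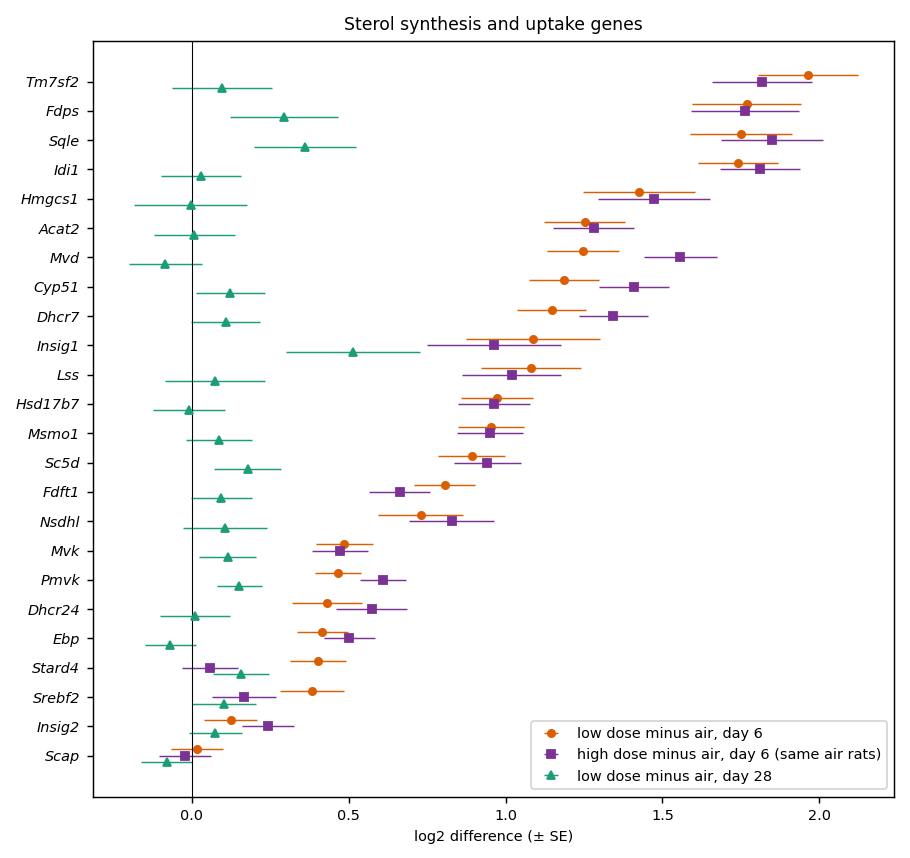
Log2 differences with SE for 24 of the 27 sterol genes (down the page), low dose minus air on day 6 (circles), high dose minus air on day 6 (squares, the same air rats) and low dose minus air on day 28 (triangles). The day 6 circles run from 1.96 for Tm7sf2 down to 0.02 for Scap, and the day 28 triangles lie between -0.08 and 0.51.

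Fatty acid genes took part less evenly. Of 31 fatty acid synthesis and lipid handling genes, 8 were higher and 3 lower (35.5%, against 6.72% of all genes). Fasn, the fatty acid synthase, was 2.74, 2.71, 2.96, 3.06 and 2.84 in low-dose rats, against 1.78, 1.52, 1.91, 1.67 and 2.3 in air rats. The groups were apart and the rise was 1.02 ± 0.14 (adjusted p = 8.59e-06). The lowered members were Abcg1, described above, and Cpt1a and Pdk4, which favour the burning of fat, at -0.43 ± 0.10 and -0.27 ± 0.08 (adjusted p = 0.00702 and 0.0355). Of 20 alveolar type II cell markers, 6 were higher and 1 lower (35%), and Fasn is one of them.

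Of 29 measured mitosis genes, 21 were higher and 0 lower (median 0.74), and of 33 DNA replication and nucleotide synthesis genes, 15 were higher and 0 lower (median 0.36). These are 72.4% and 45.5% of the measured members, against 6.72% of all genes. Cdk1, the kinase that starts mitosis, was -3.39, -2.89, -3.83, -3.39 and -3.04 in low-dose rats, against -4.65, -4.35, -4.76, -4.84 and -4.55 in air rats. Rrm2, the regulated subunit of ribonucleotide reductase, was -3, -2.77, -4.01, -3.28 and -2.77 in low-dose rats, against -4.96, -4.55, -5.01, -5.1 and -4.81 in air rats. The groups were apart for both, and rat 49 was the lowest low-dose rat for each. Cdk1 rose by 1.32 ± 0.13 (adjusted p = 3.16e-08) and Rrm2 by 1.72 ± 0.19 (adjusted p = 4.43e-07), while a second probe of Rrm2 gave 0.75 with an adjusted p of 0.0599 over probes. Cks2, a Cdk-binding protein, rose by 1.97 ± 0.20 (adjusted p = 6.03e-08), the spindle checkpoint kinase Bub1 by 1.25 ± 0.16 (adjusted p = 4.14e-06) and the thymidine kinase Tk1 by 1.23 ± 0.12 (adjusted p = 7.18e-08). The array does not tell which cells were dividing.

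Of 31 measured interferon response genes, 5 were higher and 0 lower, 16.1% against 6.72% of all genes, with a median of 0.20. The list mean was 1.16, 1.23, 1.38, 1.92 and 1.48 in low-dose rats 47 to 51, against 1.13, 1.16, 1.26, 1.12 and 1 in air rats. Rat 50 was the highest low-dose rat, and rats 47 and 48 were within the range of the air rats. Rsad2, the antiviral protein viperin, was 3.26, 2.79, 3.38, 4.98 and 4.27 in low-dose rats, against 2.7, 2.73, 2.91, 3.22 and 2.57 in air rats. The groups overlapped through rat 48, and the difference was 0.91 ± 0.28 (adjusted p = 0.0431). Without rat 50 the difference was 0.60 with an adjusted p of 0.153, and 12 alternatives in all lost the call. Irf7, the factor that amplifies type I interferon, rose by 0.95 ± 0.27 (adjusted p = 0.0268), and without rat 50 it was at 0.77 with an adjusted p of 0.0991. Ifi27l2b rose by 1.28 ± 0.25 (adjusted p = 0.00121), and by 0.95 without rat 50 (adjusted p = 0.0025).

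Promoters of 14 of 23 interferon response genes hold the core of the interferon response element, searched as GAAA, any 2 bases and GAAA, on either strand in the 250 bases before the start, against 3.41% of all promoters. Irf7 (chr1:205800054-205800133, minus strand) and Rsad2 (chr6:48788231-48788310, minus strand) are shown to set beside the chemokine and sterol promoters above, with 1 match each in capitals. In none of the 9 stretches shown did a marked match overlap a match to another of the motifs searched.
Irf7: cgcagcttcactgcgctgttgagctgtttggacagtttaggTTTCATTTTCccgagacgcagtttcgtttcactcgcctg
Rsad2: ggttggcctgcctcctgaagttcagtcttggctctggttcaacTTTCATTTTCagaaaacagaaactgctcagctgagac

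Among metal handling genes and Nrf2 targets, single genes changed while the list medians were small. Of 25 metallothionein, zinc and copper genes, 2 were higher and 2 lower (16%), with a median of -0.02. Of 31 Nrf2 target genes, 2 were higher and 3 lower (16.1%), with a median of -0.01, or 0.07 without air rat 4. The share over all genes was 6.72%. Mt1, a metallothionein, was -0.52, -0.41, -0.68, -0.45 and -0.14 in low-dose rats, against -1.84, -1.94, -1.61, -1.02 and -1.09 in air rats. Mt2A was -2.08, -2.06, -2.12, -1.81 and -1.82 in low-dose rats, against -2.99, -3.07, -2.5, -1.88 and -1.89 in air rats. Mt1 was higher in every low-dose rat, whereas for Mt2A air rats 4 and 5 lay among the low-dose rats. Mt1 rose by 1.06 ± 0.22 (adjusted p = 0.00207), and Mt2A differed by 0.49 ± 0.30 (adjusted p = 0.385). Slc7a11, the cystine importer that feeds glutathione synthesis, was -1.08, -1.45, -1.84, -1.2 and -1.9 in low-dose rats, against -3.45, -3.25, -3.75, -3.26 and -3.57 in air rats. It was higher in every low-dose rat and rose by 1.96 ± 0.27 (adjusted p = 1.36e-05).

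Hmox1, Nqo1 and Osgin1, further targets of Nrf2, gave mixed values. Hmox1, haem oxygenase 1, was 0.03, 0.01, -1.03, -0.14 and -0.34 in low-dose rats, against -0.79, -1.21, -1.09, -1.54 and -1.35 in air rats. Low-dose rat 49 lay among the air rats, and the difference of 0.90 ± 0.29 had an adjusted p of 0.061. Nqo1, a quinone reductase, differed by 0.07 ± 0.17 (adjusted p = 0.868, 95% interval -0.27 to 0.41). Osgin1 was lower in every low-dose rat, by -0.47 ± 0.10 (adjusted p = 0.00162). Of 27 superoxide and peroxide handling enzymes, 5 were higher and 0 lower, 18.5% against 6.72% of all genes. Their median was 0.14, and the list mean lay between 0.02 and 0.29 in low-dose rats and between -0.17 and 0 in air rats. They were led by Duox1, an airway oxidase that makes hydrogen peroxide, at 1.43 ± 0.24 (adjusted p = 0.000166), and its maturation factor Duoxa1 at 1.35 ± 0.16 (adjusted p = 7.13e-07).

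Among genes of the epithelium, Slc26a4 had the lowest p of the channels and transporters measured. Slc26a4 encodes pendrin, an apical anion exchanger. It was 2.95, 3.02, 3.03, 3.34 and 3.23 in low-dose rats, against 0.51, 0.47, 0.66, 0.09 and 0.55 in air rats. The groups were tight and far apart, and the rise was 2.66 ± 0.13 (adjusted p = 2.44e-14). The chloride channel Cftr rose by 1.14 ± 0.28 (adjusted p = 0.00862). In all, 5 of 20 epithelial channel and transporter genes were higher and 0 lower (25%, against 6.72% of all genes), or 7 higher without air rat 4. The median of that list was 0.26, and that of the alveolar type II markers given above was 0.36. The rhomboid protease Rhbdl2 rose by 2.10 ± 0.17 (adjusted p = 1.57e-09), with air rat 4 at 1.22 and the other air rats between -0.2 and 0.09. Of 19 alveolar type I markers 0 were higher and 2 lower (10.5%), Cav1 at -0.52 ± 0.14 (adjusted p = 0.0226) and Vegfa at -0.59 ± 0.18 (adjusted p = 0.042). Both calls were lost under several alternatives.

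Airway and heart markers varied with air rat 4 and with low-dose rat 49. The list mean of heart muscle genes was 1.34 in rat 49, against -1.03 to -0.67 in the other low-dose rats, and that of club and goblet cell markers was 3.94, against 2.73 to 3.07. The median of 13 ciliated cell markers was 0.18, and 0.49 without air rat 4, with 1 marker higher in either case (7.69%, against 6.72% of all genes). That marker was the tektin Tekt2 at 1.04 ± 0.12 (adjusted p = 5.25e-07). The median of 14 club and goblet cell markers was 0.05, and 0.36 without air rat 4, with 3 higher in either case (21.4%). The 18 heart muscle genes had a median of -0.54 with it and 0.47 without it, with 0 called with it and 2 higher without it. Among them Cox6a2, a cytochrome c oxidase subunit of heart and skeletal muscle, was 0.55, 0.77, 2.27, 0.76 and 0.85 in low-dose rats, against -2.18, -1.8, -1.91, 5.52 and -1.26 in air rats. Its difference of 1.37 ± 0.90 (adjusted p = 0.414) became 2.83 without air rat 4 (adjusted p = 0.000181).

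Matrix genes rose in part. Of 25 extracellular matrix genes 7 were higher and 0 lower (28%, against 6.72% of all genes). They were led by Cthrc1, a collagen triple helix repeat protein of activated fibroblasts, at 1.71 ± 0.24 (adjusted p = 1.13e-05). Emilin1, an elastic fibre protein, rose by 0.80 ± 0.10 on its brightest probe (adjusted p = 2.67e-06), while its second probe gave 0.11 (adjusted p = 0.406 over probes). Of 21 fibroblast, smooth muscle and pericyte markers 1 was higher and 0 lower (4.76%), the receptor Notch3 at 0.77 ± 0.15 (adjusted p = 0.000893), and 3 were higher without air rat 4.

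The largest decrease was in Tac1, which encodes the precursor of the sensory neuropeptide substance P. It was -0.19, 0.13, -0.76, -0.71 and 0.58 in low-dose rats, against 2.75, 2.37, 2.84, 2.78 and 2.45 in air rats. Every low-dose rat lay below every air rat. Tac1 fell by 2.83 on the log2 scale (SE 0.30, adjusted p = 1.4e-07), or 7.09-fold, and a second probe gave -1.04 (adjusted p = 3.04e-05 over probes). Its relative Tac4, the precursor of hemokinin, which immune cells also make, moved the other way, at 1.03, 1.43, 0.59, 0.97 and 1.35 in low-dose rats against -0.24, -0.04, -0.11, -0.22 and -0.61 in air rats. Tac4 rose by 1.32 ± 0.18 (adjusted p = 7.6e-06).

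Other large decreases varied among the low-dose rats. Serpinb10, a protease inhibitor of blood-forming cells, was -1.23, 0.4, -2.18, -1.98 and 0.09 in low-dose rats, against 1.72, 1.13, 1.48, 0.65 and 1.12 in air rats. Pla2g2d, a secreted phospholipase of antigen-presenting cells, was 1.35, 1.74, 0.55, 0.42 and 2.15 in low-dose rats, against 2.65, 2.46, 2.82, 3.02 and 2.91 in air rats. In both genes rats 49 and 50 were the lowest and rats 48 and 51 the closest to air. Serpinb10 fell by 2.20 (SE 0.35, adjusted p = 9.8e-05) and Pla2g2d by 1.53 (SE 0.24, adjusted p = 7.64e-05). Gsn, the actin-severing protein gelsolin, fell by 0.88 (SE 0.16, adjusted p = 0.000463), and the Notch ligand Dll1 by 0.86 (SE 0.19, adjusted p = 0.00427).

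Immediate early genes were on the low side. Of 29 measured, 1 was higher and 7 lower (27.6%, against 6.72% of all genes), with a median of -0.55. Without air rat 4 there were 1 higher and 6 lower. Egr2, a zinc finger factor, was -1.99, -2.02, -2.77, -2.56 and -2.5 in low-dose rats, against -1.69, -1.22, -1.8, -0.59 and -1.3 in air rats. Egr2 fell by 1.05 (SE 0.24, adjusted p = 0.00433), and Dusp5, a phosphatase of Erk, by 0.74 (SE 0.12, adjusted p = 0.000139). Fos, the best known of these genes, ranged from -3.05 to 0.39 in low-dose rats and from -2.15 to -0.21 in air rats, and the difference of -0.92 ± 0.59 had an adjusted p of 0.406. The nuclear receptor Nr4a3 was the member that rose, by 1.26 ± 0.20 (adjusted p = 8.08e-05). Its relative Nr4a1 fell by 1.30 (SE 0.39, adjusted p = 0.0382). That call was lost under 8 alternatives, among them leaving out air rat 4 (-1.14, adjusted p = 0.0906). Of 17 circadian clock genes 0 were higher and 2 lower (11.8%), or 1 and 2 without air rat 4. The lowered genes were Per2 at -0.72 ± 0.15 (adjusted p = 0.00174) and Cry1 at -0.58 ± 0.10 (adjusted p = 0.000344).

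None of 28 proteasome subunits and none of 26 respiratory chain subunits passed the threshold, with medians of 0.15 and 0.04, and 1 respiratory chain subunit passed without air rat 4. Of 25 heat shock and unfolded protein genes 1 was higher and 1 lower (8%), or 1 and 0 without air rat 4. Of 22 p53 target and growth arrest genes 1 was higher and 3 lower (18.2%), and of 30 xenobiotic metabolism genes 0 were higher and 3 lower (10%). The share over all genes was 6.72%. Gadd45a, a growth arrest gene that responds to DNA damage, was lower in every low-dose rat, by -0.60 ± 0.10 (adjusted p = 8.99e-05). Aox1, an aldehyde oxidase, was lower in every low-dose rat, by -0.85 ± 0.16 (adjusted p = 0.00077). Of 32 lysosome and proton pump genes 7 were higher and 1 lower (25%), or 5 and 0 without air rat 4, led by the cholesterol carrier Npc2 at 0.97 ± 0.18 (adjusted p = 0.000532).

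The question of how far the response had gone at 3.3 mg/m3 was put by testing high-dose rats against low-dose rats of day 6 directly. Of the 18420 genes 2188, or 11.9%, differed, 1476 higher and 712 lower in high-dose rats. Increases made up 67.5% of these calls, and 55.9%, 55.4% and 53.8% of them with the processed signals, with Cy5 alone and with the authors' deposited table. The lists divided. Over all genes 8.01% were higher in high-dose rats. Of the 31 interferon genes 29 were higher in high-dose than in low-dose rats, with a median difference of 1.37, and of the 29 mitosis genes 25, with a median of 0.86. Of the 27 sterol genes 0 were higher and 1, Stard4, lower in high-dose rats, with a median of 0.05. Of the 27 acute phase and defence genes 2 were higher and 0 lower, but their median was 0.335. Against air that list had a median of 0.69 at the low dose and 1.12 at the high dose.

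Named genes of either kind are given here with the values of both doses. Ccl17 was 3.64, 3.22, 3.56, 3.1 and 2.87 in high-dose rats 75 to 79, against the low-dose values above of 3.22 to 3.74. High minus low was -0.12 with a 95% interval of -0.43 to 0.20, so the interval spans 0. For Lcn2 the interval was -0.32 to 1.05, for Idi1 -0.19 to 0.33 and for Tm7sf2 -0.47 to 0.18. Ccl12 was 7.3, 5.55, 7.4, 7.37 and 6.63 in high-dose rats, all above the low-dose range of 2.93 to 5.22. High minus low was 3.30 ± 0.34 for Ccl12 (adjusted p = 1.2e-07). It was 3.14 ± 0.27 for Cxcl10, a ligand of Cxcr3 (adjusted p = 6.1e-09), and 3.07 ± 0.25 for Ifi27l2b (adjusted p = 2.99e-09). Ccl2, Ccl7 and Irf7 were chosen by the same rule, with differences of 2.45, 2.53 and 2.22.

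**Figure D4:**
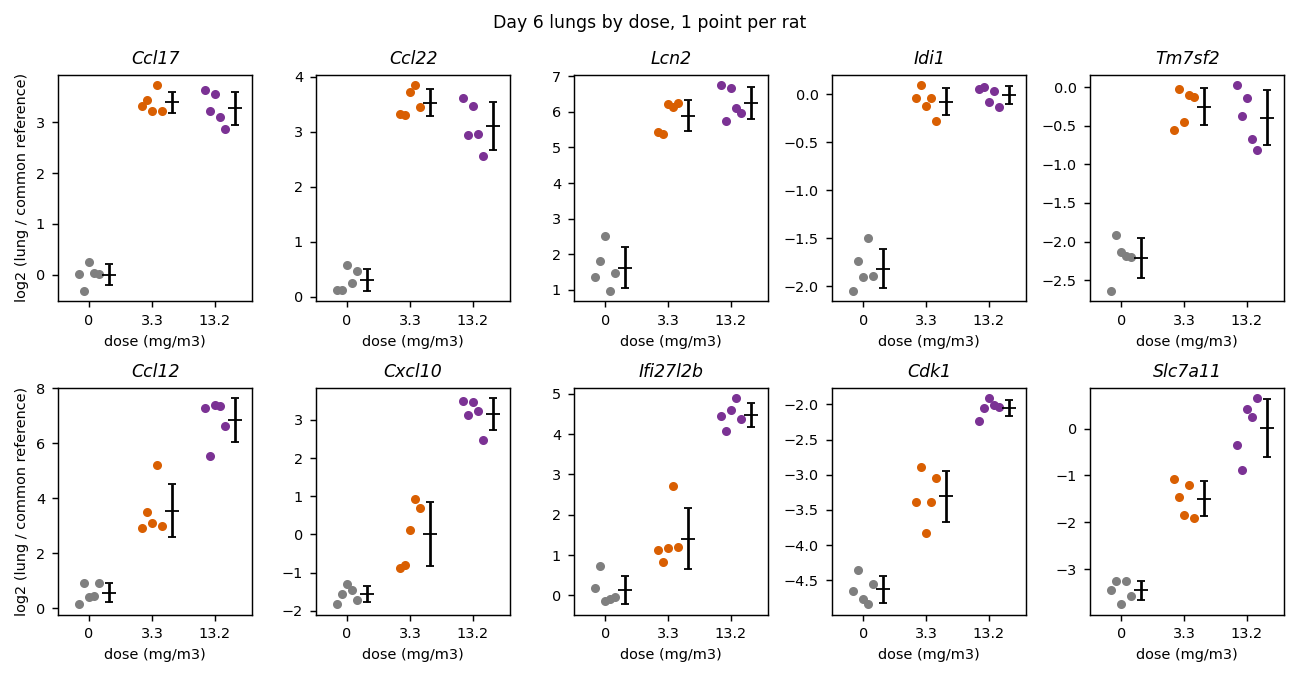
Log2 ratio of lung over common reference (y axis, a separate scale per gene) by dose in mg/m3 (x axis) on day 6, 1 point per rat with the group mean and SD beside it. In the upper row the high-dose values lie near the low-dose values, for Ccl17 between 2.87 and 3.64, and in the lower row they lie above them, for Ccl12 between 5.55 and 7.4.

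For 6 genes, chosen because high-dose and low-dose rats differed against the direction of the low-dose change, the low dose lay farther from air than the high dose. They were taken from 18 such genes, while 547 genes called at the low dose differed further along its direction, and both contrasts use the same low-dose rats. Cdkn2b, an inhibitor of Cdk4 and Cdk6, was 0.9, 1.05, 0.56, 0.42 and 0.44 in high-dose rats. It was 1.25, 1.58, 1.36, 1.71 and 1.87 in low-dose rats and 0.74, 0.82, 0.78, 0.6 and 0.92 in air rats. The low-dose rats lay above both other groups. Slc13a3, Rgs9 and Aldh1l1 were likewise higher in low-dose rats, and Olr1, the receptor of oxidised low-density lipoprotein, and Dusp5 were lower in low-dose rats. High minus low ran from -0.88 for Cdkn2b to 0.75 for Olr1. Since the rule chose these genes for that pattern, it is a description.

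Against the same air rats the high dose gave 6728 calls, 36.5% of all genes, and both comparisons share those rats. Side by side, the sterol list had 23 higher and 0 lower at the high dose (median 0.95) and 24 and 0 at the low dose (median 0.94). The interferon list had 29 and 0 at the high dose (median 1.64) and 5 and 0 at the low dose (median 0.20). The alveolar type I markers had 0 higher and 13 lower at the high dose (median -0.63) and 0 and 2 at the low dose (median -0.20).

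On day 28 the low-dose lungs differed from air lungs of the same day in 2 genes, 0.0109% of those tested, at adjusted p under 0.05, while 1097 genes had an unadjusted p under 0.05. Other settings gave between 2 and 6 genes. Both were lower, and both are known as clock-controlled genes whose level varies with the time of day. No time of killing is given in the labels, which bears on these genes and on Per2 and Cry1 of day 6, and its part was not tested. The differences were Dbp at -2.04 ± 0.23 (adjusted p = 8.41e-06) and Nr1d1 at -1.91 ± 0.19 (adjusted p = 1.03e-06). Nr1d1 was -0.67, -0.97, -0.74, -0.71 and -0.79 in low-dose rats 52 to 56, against 1.06, 1.02, 1.08, 0.92 and 1.58 in air rats 6 to 10, wholly below. On day 6 the 2 genes had differed by -0.24 (Dbp, adjusted p = 0.607) and 0.12 (Nr1d1, adjusted p = 0.772). No gene was called on both days, so no persisting gene is named.

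The leading genes named below were chosen for their day 6 change, which enters the next test too, so their values are descriptions. The difference between the days was tested as an interaction, the low-dose effect of day 6 minus that of day 28, and 359 genes passed, 1.95% of all, 302 of them positive and 57 negative. Ccl17 differed from air by 0.01 ± 0.15 on day 28, against 3.39 on day 6 (interaction adjusted p = 3.92e-11). Lcn2 differed by 0.15 ± 0.33 on day 28 (interaction adjusted p = 3.12e-06), and its day 28 values ran from -0.1 to 1.42 in low-dose rats and from 0.07 to 1.99 in air rats. Of the sterol genes 17 of 27 passed the interaction, and the list's median on day 28 was 0.09. Of the mitosis genes 15 of 29 passed, with a day 28 median of -0.11. Tac1 differed by -0.92 ± 0.30 on day 28 (adjusted p = 0.76), with values of 0.67 to 2.02 in low-dose rats and 1.54 to 3.22 in air rats, and its interaction had an adjusted p of 0.00926.

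**Figure D5:**
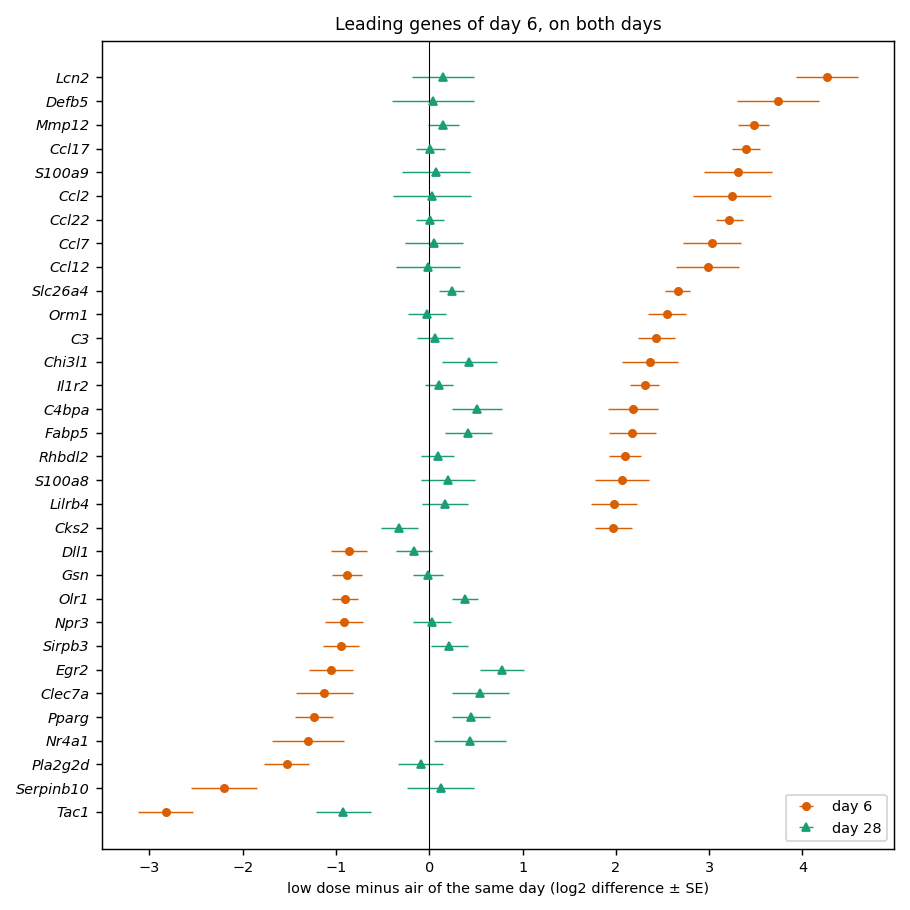
Low dose minus air of the same day, as log2 difference with SE (x axis), for the 20 largest increases and 12 largest decreases of day 6 (rows), on day 6 (circles) and day 28 (triangles). The circles run from -2.83 for Tac1 to 4.27 for Lcn2, and the triangles lie between -0.92 and 0.78.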

How the data were processed

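Lung RNA of single rats (Cy5) was hybridised with a common reference (Cy3) on 30 two-colour arrays, per the labels' protocols. The deposited files hold spot intensity, the median brightness of each channel and its local background, as scanned and extracted with Agilent Feature Extraction 11.0.1.1 on a design of build rn4, per the file headers. The authors' deposited value table holds log2 ratios, found here to match loess-normalised ratios without background correction (r of 0.997 or more on every array), with array medians between -0.0314 and -0.00539. Its steps are not given in the sources used here.

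From the intensities, normexp (offset 50) and loess within arrays were run in limma 3.58.1 (R 4.3.3), with control and flagged spots at weight 0. Spots of a probe were averaged. Of 30367 probes, 20852 were kept because Cy5 was well above background on at least 5 arrays, and the brightest probe per gene gave 18420 genes, 7089 of them without a symbol. Median Cy5 intensity ran from 216 to 432 per array, 59.5% to 68.4% of probes were well above background, no spot was saturated, and the number of arrays limits the precision.

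All 6 groups entered 1 limma fit. P-values were adjusted (Benjamini-Hochberg, 0.05) over all genes, and an SE or interval is that of the fit. Groups come from the titles, as do the rat numbers. Each rat gave 1 array, so the spread behind the p-values is that between rats together with labelling and hybridisation. It was pooled over all 6 groups. Named genes (125) were the 20 largest increases and 12 largest decreases with symbols, past the threshold and without overlap, the 2 members of smallest p in each of 46 lists, 6 genes each for high-dose differences along or against the low-dose change, genes called on both days (0), and a panel of 32. Abcg1, Cftr, Cpt1a, Csf3r, Cxcl2, Cxcr1, Dbp, Fdps, Hmgcs1, Hp, Il1b, Insig2, Pdk4, Scap, Sqle, Stard4 and Trem2 were chosen after their values were seen. Members, lists and motifs were chosen with earlier results of these data known. A few members of the sterol list count towards its totals but are not reported here by name.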

Additional observations from a re-analysis of the deposited data

Results flagged for a closer look

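In 21 of 250 sets of 5 rats, 8 of low-dose and 13 of air rats, 1 rat lay far from the other 4. The limit used is the 95% critical value of a gap test (Dixon), which chance passes in about 1 in 20 sets by its definition, and no cause was tested. Air rat 4 was the distant one for Rhbdl2 (1.22), Cfi (-0.61), Bpifb1 (4.52), Dnai2 (1.36), Esm1 (0.84), Cox8b (6.87), Cox6a2 (5.52), Emilin1 (-1.29), Car2 (-0.85) and Cox5b (-0.01). Air rat 5 was the distant one for Hdc (-0.88), Hbb-bs (2.29) and Cp (1.57). Among low-dose rats, rat 48 was low for Defb5 (1.52) and S100a8 (1.98). Rat 49 was low for Cks2 (-3.64) and high for Cox6a2 (2.27), Srebf2 (0.79) and Nr1d1 (1.46). Rat 50 was high for Ccl12 (5.22) and Ifi27l2b (2.72). Without air rat 4, Esm1, an endothelial secreted proteoglycan, differed by -1.12 (adjusted p = 0.000471), against -0.79 with it (adjusted p = 0.0589).

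For 29 of the 32 leading genes the low-dose effect differed between day 6 and day 28 by the interaction test. The genes were chosen as the largest changes of day 6, whose values the test uses, so this count is a description. The differences, day 6 minus day 28, were positive for Lcn2 (4.12), Defb5 (3.7), Ccl17 (3.38), Mmp12 (3.33), S100a9 (3.24), Ccl2 (3.22), Ccl22 (3.21), Ccl12 (3), Ccl7 (2.98), Orm1 (2.57, from a probe not well above background in the air rats of day 6), Slc26a4 (2.42), C3 (2.37), Cks2 (2.29), Il1r2 (2.2), Rhbdl2 (2.01), Chi3l1 (1.94), S100a8 (1.87), Lilrb4 (1.81), Fabp5 (1.76) and C4bpa (1.67). They were negative for Serpinb10 (-2.32), Tac1 (-1.9), Egr2 (-1.83), Pparg (-1.68), Clec7a (-1.67), Pla2g2d (-1.44), Olr1 (-1.28), Sirpb3 (-1.16) and Gsn (-0.87). Their adjusted p ran from 3.92e-11 for Ccl17 to 0.0368 for Gsn.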

How the results depend on the processing

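No paired analysis was possible because the rat numbers are the animals' own and no number occurs in more than 1 group. No named gene turned its direction past the threshold under the alternatives run. The 1238 calls became 573 with median centring in place of loess, 547 of them shared, and 539 with a 1.5-fold minimum. They were 1688 with slide as a block (1213 shared) and 1641 when slide was a block and air rat 4 was left out, an alternative chosen after seeing the data. Leaving out 1 rat gave 869 (without air rat 5) to 1442. High against low on day 6 gave 1008 with median centring, 824 with the minimum fold and 1353 (without high-dose rat 79) to 2591 on leaving out 1 rat, and 1419 without high-dose rat 77. The interaction gave 159 with median centring, which put the median of all genes at -0.147, against 0.017, and the share of positive calls to 68.6%, against 84.1%. Leaving out 1 rat gave 279 to 426. Day 28 gave 5 with the processed signals, 5 with Cy5 alone and 2 to 6 (without air rat 8) on leaving out 1 rat. High against air gave 2733 with the minimum fold and 5821 to 6478 on leaving out 1 rat. Its share of increases was 57.7%, but decreases were the larger part under several settings. There the share was 43.6% with median centring, 46.1% with the authors' table, 47.7% with Cy5 alone and 49.1% with the processed signals. Of the 99 named genes past the threshold, 76 kept the call under every alternative. The processed signals changed the size of several named differences, leading genes included. They moved Tac1 to -5.33, Slc7a11 to 3.16, Egr2 to -1.83, Icos to 1.69, Rgs9 to 2.7 and Slc13a3 to 2.12. Mmp12 went to 4.75, Ccl12 to 4.15, Rhbdl2 to 3.15, Cthrc1 to 2.55 and Sirpb3 to -2.35, while S100a9 shrank to 2.37. The call on Cxcr2 was lost (0.79, adjusted p = 0.226). The list medians of club and goblet, heart muscle, Nrf2, metal, p53, prostaglandin, fibroblast, mast and B cell genes changed sign under at least 1 alternative, and the other medians did not. The causes were not tested. Dim probes are read least well. For 2 named genes, Orm1 among them, the probe was well above background on no array of 1 group.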
